A study of Mus musculus with 6 samples.

Results

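The genes described here are 47 mouse genes of the cell cycle and of DNA replication, measured by bulk RNA sequencing in sorted marginal zone (MZ) B cells. They were taken by gene symbol from a list drawn up for this work, and all 47 were found among the 55487 gene IDs of the deposited table and among the 13794 genes that passed the filter on low counts. The list holds 21 genes of DNA replication and S phase, 20 genes of G2 phase and mitosis (G2/M), and 6 genes of G1 progression and growth, the last including the cyclins D and the tubulin gene Tubb5. The mice were 14 weeks old, and the cells were enriched by removing other cells and then sorted by flow cytometry. The labels give 3 libraries of CD55KO mice, which lack the complement regulator CD55 (decay-accelerating factor), and 3 libraries of WT C57BL/6 mice. They name no other allele and no treatment, and they do not give the strain background of the CD55KO mice. Whether each library stands for a mouse of its own is not stated, so the p-values cover the spread among the 6 libraries alone, part of which may be technical.

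Cells enter a division when cyclins D with CDK4 and cyclin E with CDK2 release E2F transcription factors, which switch on the genes of DNA replication. Before S phase the MCM helicase is loaded on replication origins, a step called licensing, and genes of mitosis are switched on later, as cyclin B and CDK1 become active. The anaphase-promoting complex then marks cyclin B and other mitotic proteins for degradation. MZ B cells are a mostly resting population of the spleen that answers blood-borne antigen quickly. In bulk RNA, fewer dividing cells and less RNA of these genes in each cell cannot be told apart.

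Library totals ran from 20056111 counts in WT replicate 1, the shallowest library, to 30784090 in WT replicate 2. Cd55 itself was at 7.53 ± 1.36 CPM (the count relative to the TMM-scaled library total; mean ± SD, n = 3) in CD55KO and at 118 ± 7.69 CPM in WT, which fits the labels of all 6 libraries. WT replicate 1 stood apart from the other 5 libraries on the axis of largest variation over all genes tested, which held 28.8% of the variance. The 10 marker genes of MZ B cells were all detected, and their summed level lay between 4125 and 4594 CPM in the 6 libraries. Over all genes tested, 55 genes (0.399%) passed an adjusted p of 0.05 between the genotypes in edgeR's quasi-likelihood test.

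None of the 47 genes passed that threshold, and the lowest adjusted p was 0.275, for Mcm5. The fitted log2 fold change (CD55KO against WT) had a negative sign for 42 of the 47 genes, with a median of -0.32, whereas 6839 of all 13794 genes had a negative value and their median was 0.0015. An unadjusted p under 0.05 with a lower level in CD55KO was found for 12 of the 47 genes, or 25.5%, beside 4.3% of all genes tested. No member had such a p with a higher level in CD55KO, beside 4.3% of all genes. For 5 genes (10.6%), Mcm5, Gins2, Tyms, Ccnb1 and Cks1b, every CD55KO library lay under every WT library, which was so for 6.84% of all genes tested. WT replicate 1 was the highest of the 6 libraries for 38 of the 47 genes, beside 18.5% of all genes tested. It exceeded the mean of the other 5 libraries at least 1.5-fold for 24 of the 47 genes, beside 6.71% of all genes.

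**Figure D1:**
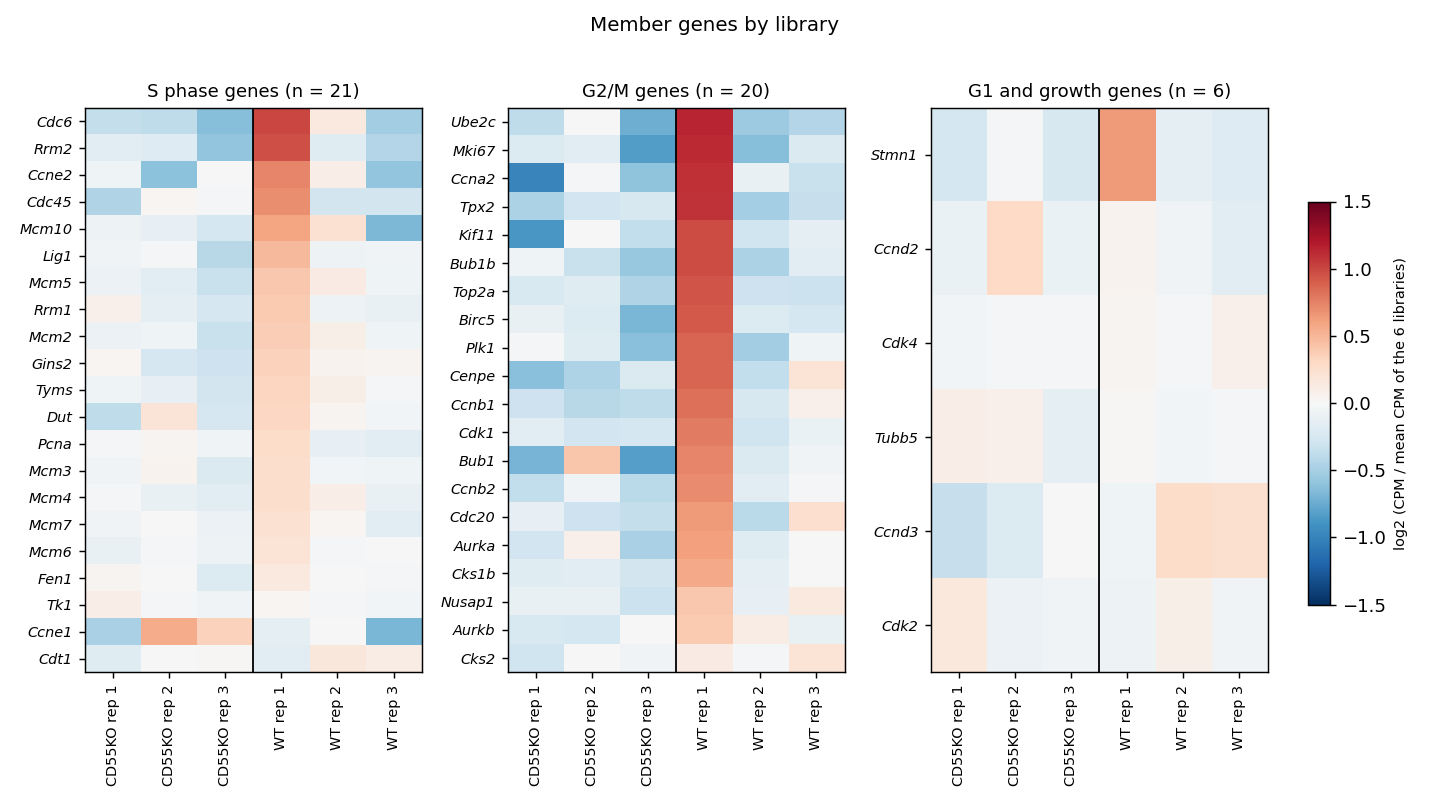
Each row is 1 of the 47 genes, grouped by class, and each column is 1 library. Colour gives the log2 of the ratio of the gene's CPM in that library to its mean CPM over the 6 libraries. The WT replicate 1 column holds the highest value of its row for 18 of 21 S phase genes, 19 of 20 G2/M genes and 1 of 6 G1 and growth genes.

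Genes of the MCM2-7 helicase, which unwinds DNA at the replication fork, were measured at a moderate level. Per kb of exon, their mean over the 6 libraries ran from 7.13 CPM per kb for Mcm2 to 20.5 CPM per kb for Mcm4. Mcm5 (ENSMUSG00000005410, chr8:75109569-75128439, GRCm38) was at 50.6, 48.0 and 42.4 CPM in the CD55KO libraries and at 71.0, 58.6 and 51.5 CPM in the WT libraries, given here and throughout in the order of replicates 1 to 3. The genotypes did not overlap for Mcm5, but the lowest WT library lay close to the highest CD55KO library. Its log2 fold change was -0.36 ± 0.11 (SE), with an unadjusted p of 0.00506 and an adjusted p of 0.275, and without WT replicate 1 it was -0.23. Mcm2, another subunit, was at 46.7, 47.5 and 39.4 CPM in CD55KO and at 64.0, 52.5 and 47.3 CPM in WT. WT replicate 3 lay under CD55KO replicate 2 for this gene, so the genotypes overlapped, and the log2 fold change was -0.29 ± 0.11 (adjusted p 0.436). The log2 fold change of Mcm4 was -0.19 ± 0.09 (adjusted p 0.576), and those of Mcm3, Mcm6 and Mcm7 lay between -0.13 and -0.09. All 6 subunits were highest in WT replicate 1, by 1.19-fold (Mcm6) to 1.41-fold (Mcm5) over the mean of the other 5 libraries.

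The genes of origin licensing and firing divided by level. Cdc6, which loads the MCM helicase together with Cdt1, was at 5.76, 5.62 and 4.73 CPM in CD55KO and at 14.8, 8.11 and 5.12 CPM in WT. WT replicate 1 stood 2.52-fold above the mean of the other 5 libraries for Cdc6, the largest such ratio among the 21 S phase genes, while WT replicate 3 lay among the CD55KO libraries. Its log2 fold change was -0.78 ± 0.36 (adjusted p 0.619), and -0.30 without WT replicate 1. Cdt1, the partner of Cdc6 in licensing, was at 33.6, 38.2 and 38.4 CPM in CD55KO and at 34.1, 42.7 and 41.0 CPM in WT. Unlike most of the S phase genes it was low in WT replicate 1, and its highest library was WT replicate 2. Cdc45, a component of the active helicase, was at 5.06, 7.08 and 6.76 CPM in CD55KO and at 11.2, 5.72 and 5.72 CPM in WT. Only WT replicate 1 was outside the CD55KO range, and the log2 fold change of -0.25 ± 0.26 became 0.14 without that library. Gins2, a subunit of the GINS complex of the same helicase, was at 14.3, 11.8 and 11.4 CPM in CD55KO and at 17.9, 14.6 and 14.5 CPM in WT. CD55KO replicate 1 lay just under WT replicate 3, so the genotypes did not overlap, and its log2 fold change was -0.32 ± 0.14 (adjusted p 0.509). Mcm10, which acts in helicase activation, had a mean of 3.80 CPM and was 1.68-fold above the mean of the other libraries in WT replicate 1.

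Of the genes of DNA synthesis, Pcna and Fen1 were the most abundant of the S phase list. Pcna, the sliding clamp of the DNA polymerases, was at 77.3, 81.0 and 76.0 CPM in CD55KO and at 95.1, 72.0 and 70.3 CPM in WT. The CD55KO libraries lay between WT replicate 1 above and the other WT libraries below, and the log2 fold change was -0.02 ± 0.10 (95% interval -0.23 to 0.20). Without WT replicate 1 the value was 0.13, with both remaining WT libraries under all CD55KO libraries. Fen1, the flap endonuclease that trims Okazaki fragments, was at 88.9, 86.2 and 75.1 CPM in CD55KO and at 95.8, 86.6 and 85.3 CPM in WT, a log2 fold change of -0.10 ± 0.08. Per kb of exon, Fen1 was at 35.6 CPM per kb and Pcna at 32.8 CPM per kb. Lig1, the ligase that joins Okazaki fragments, was 1.52-fold above the mean of the other libraries in WT replicate 1, with a log2 fold change of -0.29 ± 0.16.

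Of the genes of nucleotide supply, Rrm2 stood out by a single library. Rrm2, the small subunit of ribonucleotide reductase that is made in S phase, was at 39.5, 38.8 and 29.3 CPM in CD55KO and at 86.6, 39.0 and 32.8 CPM in WT. WT replicate 1 was 2.41-fold above the mean of the other 5 libraries, which overlapped fully between genotypes. The log2 fold change was -0.55 ± 0.46 with all libraries and -0.0018 without WT replicate 1. Rrm1, the large subunit, was 1.40-fold above the mean of the other libraries there. Tyms, the thymidylate synthase, was at 17.0, 16.4 and 14.7 CPM in CD55KO and at 22.2, 19.0 and 17.7 CPM in WT, with no overlap and a log2 fold change of -0.29 ± 0.12 (adjusted p 0.493). Tk1, the thymidine kinase of S phase, was within 28.9 to 32.1 CPM in all 6 libraries and highest in CD55KO replicate 1. Dut, which removes dUTP, was at 35.8 ± 7.85 CPM in CD55KO and 42.3 ± 5.62 CPM in WT. Its second highest library was CD55KO replicate 2, at 44.7 CPM against 48.6 CPM in WT replicate 1.

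Cyclins E, which with CDK2 start S phase, were at low levels. Ccne1 was at 1.14, 2.35 and 2.03 CPM in CD55KO and at 1.46, 1.60 and 0.995 CPM in WT, with a log2 fold change of 0.44 ± 0.35 (adjusted p 0.798). Its order of libraries was unlike that of the other S phase genes, with the highest value in CD55KO replicate 2. Ccne2 was at 3.45, 2.35 and 3.57 CPM in CD55KO and at 5.97, 3.86 and 2.38 CPM in WT, and was 1.91-fold above the mean of the other libraries in WT replicate 1.

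The G2/M genes were measured at lower levels than the S phase genes, with a median over genes of 3.18 CPM per kb of exon against 7.13 CPM per kb. All 20 had a negative log2 fold change, from -0.84 (Ccna2) to -0.22 (Cks2), with a median of -0.50. An unadjusted p under 0.05 was found for 6 of them (30%), Ccnb1, Cks1b, Aurkb, Cdc20, Cenpe and Nusap1. Of all genes tested, 4.3% had such a p with a lower level in CD55KO. In WT replicate 1, 17 of the 20 were at least 1.5-fold above the mean of the other 5 libraries, beside 6.71% of all genes tested. The exceptions were Cks2, Aurkb and Nusap1.

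Among the subunits and partners of the mitotic CDK, Ccnb1 (ENSMUSG00000041431, chr13:100778650-100786570, GRCm38), which encodes cyclin B1, was at 9.02, 8.42 and 8.62 CPM in CD55KO and at 19.97, 9.52 and 11.8 CPM in WT. All WT libraries lay above all CD55KO libraries, WT replicate 2 narrowly. The log2 fold change was -0.65 ± 0.24 (adjusted p 0.458), and -0.29 without WT replicate 1. Ccnb2, cyclin B2, and Cdk1, the kinase itself, were 1.88-fold and 2.00-fold above the mean of the other libraries in WT replicate 1. Ccna2, cyclin A2, which serves in S phase and in G2, was at 1.98, 3.84 and 2.59 CPM in CD55KO and at 8.40, 3.64 and 3.13 CPM in WT. CD55KO replicate 2 exceeded both remaining WT libraries for this gene. Cks1b, a small subunit that binds CDKs, was at 17.0, 17.3 and 16.0 CPM in CD55KO and at 28.8, 17.6 and 19.3 CPM in WT, with no overlap and a log2 fold change of -0.38 ± 0.16 (adjusted p 0.525). Its paralogue Cks2 was at 13.7, 16.8 and 16.3 CPM in CD55KO and at 18.5, 16.6 and 19.6 CPM in WT. Cks2 was the G2/M gene with the smallest excess in WT replicate 1, 1.11-fold, and the single one whose highest library was another, WT replicate 3.

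Ki-67 and topoisomerase IIα are both widely used to mark dividing cells, and both genes were highest in WT replicate 1. Mki67 was at 9.17, 9.39 and 5.92 CPM in CD55KO and at 22.9, 6.77 and 9.09 CPM in WT. Top2a (ENSMUSG00000020914, chr11:98992943-99024189, GRCm38) was at 30.6, 31.4 and 26.2 CPM in CD55KO and at 68.7, 28.8 and 28.6 CPM in WT. For both genes WT replicates 2 and 3 lay within the CD55KO range. The log2 fold changes were -0.65 ± 0.57 for Mki67 and -0.51 ± 0.43 for Top2a with all libraries, and 0.04 and 0.03 without WT replicate 1.

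The kinases and checkpoint proteins of mitosis were similar, Aurkb less so. Birc5 (survivin), Plk1, Bub1 and Bub1b were 2.29-fold, 2.20-fold, 1.91-fold and 2.43-fold above the mean of the other libraries in WT replicate 1. Aurka was 1.71-fold above it. Aurkb, the kinase of the chromosomal passenger complex, was at 18.0, 17.6 and 20.9 CPM in CD55KO and at 27.6, 22.7 and 19.5 CPM in WT. WT replicate 1 was 1.40-fold above the other libraries for Aurkb, the genotypes overlapped at CD55KO replicate 3 and WT replicate 3, and the log2 fold change was -0.30 ± 0.13 (adjusted p 0.508).

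Of the 2 genes of the anaphase-promoting complex, Ube2c had the highest ratio of all 47 genes. Ube2c, the E2 enzyme of the complex, was at 10.8, 14.0 and 8.44 CPM in CD55KO and at 31.0, 9.64 and 10.4 CPM in WT. WT replicate 1 was 2.91-fold above the mean of the other libraries, and the log2 fold change went from -0.60 ± 0.60 to 0.14 without it. Cdc20, the activator of the complex, was at 8.69, 7.65 and 7.39 CPM in CD55KO and at 14.8, 7.15 and 11.3 CPM in WT. Here WT replicate 2 was the lowest of all 6 libraries while WT replicate 3 was the second highest, and the log2 fold change was -0.48 ± 0.22 (adjusted p 0.577).

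Genes of the spindle differed among themselves in their excess in WT replicate 1. Tpx2, a spindle assembly factor that activates Aurora A, was at 5.98, 6.80 and 7.005 CPM in CD55KO and at 17.6, 5.84 and 6.501 CPM in WT. Cenpe, a kinetochore motor, was at 4.22, 4.73 and 5.60 CPM in CD55KO and at 11.9, 5.05 and 7.53 CPM in WT. Tpx2 was high in WT replicate 1 alone, whereas Cenpe was also above the CD55KO range in WT replicate 3. The log2 fold changes were -0.58 ± 0.49 for Tpx2 and -0.74 ± 0.27 for Cenpe (adjusted p 0.832 and 0.447), and 0.10 and -0.37 without WT replicate 1. Kif11, a motor that separates the spindle poles, was 2.44-fold above the mean of the other libraries in WT replicate 1. Nusap1, which binds spindle microtubules, was at 16.2, 16.3 and 14.0 CPM in CD55KO and at 23.2, 16.1 and 19.5 CPM in WT. Its WT replicate 2 lay within the CD55KO range, and its log2 fold change was -0.33 ± 0.13 (adjusted p 0.470).

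The 6 genes of G1 progression and growth did not share the pattern, apart from Stmn1. Ccnd3, cyclin D3 (ENSMUSG00000034165, chr17:47505051-47599691, GRCm38), was at 52.2, 57.5 and 66.7 CPM in CD55KO and at 63.2, 80.1 and 78.0 CPM in WT. Unlike the G2/M genes, Ccnd3 was lowest of the WT libraries in replicate 1, the 1 WT library that overlapped with CD55KO. The log2 fold change was -0.33 ± 0.10 (unadjusted p 0.00683, adjusted p 0.309). Without WT replicate 1 it was -0.43 ± 0.10, with an unadjusted p of 0.000575 and an adjusted p of 0.113. Ccnd2, cyclin D2, was at 131, 173 and 131 CPM in CD55KO and at 145, 135 and 125 CPM in WT, and its highest library was CD55KO replicate 2. Cdk4, the kinase of the cyclins D, lay between 190 and 206 CPM in all 6 libraries, with a log2 fold change of -0.06 ± 0.07 and a 95% interval of -0.21 to 0.10. Cdk2, the partner of the cyclins E, lay between 27.5 and 32.6 CPM, with a log2 fold change of 0.03 ± 0.10. Tubb5, a β-tubulin made in many growing cells, was the most abundant of the 47 genes at 214 CPM per kb of exon. It was at 765, 751 and 641 CPM in CD55KO and at 721, 692 and 703 CPM in WT, with a log2 fold change of 0.03 ± 0.09. Stmn1, stathmin, which destabilises microtubules, was at 41.5, 49.2 and 42.0 CPM in CD55KO and at 77.2, 44.9 and 43.3 CPM in WT. Only WT replicate 1 stood apart for Stmn1, 1.75-fold above the mean of the other libraries, and its log2 fold change was -0.31 ± 0.26 with that library and 0.0053 without it.

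The estimated counts of 10 of these genes were not whole numbers in any library (Mcm7, Pcna, Gins2, Fen1, Ccne2, Ccna2, Cks2, Ccnd3, Cdk4 and Stmn1). Reads of these genes may have been divided with other genes or copies, so their levels are less certain than those of the 30 genes with whole counts in all 6 libraries. The libraries do not mark strand, so reads of a gene and of a gene overlapping it on the opposite strand cannot be told apart.

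The S phase and G2/M classes were then compared within each library. For each gene the log2 CPM was centred on its mean over the 6 libraries, and the centred values were averaged over the genes of a class. The S phase mean was -0.09, -0.03 and -0.17 in CD55KO and 0.40, 0.05 and -0.15 in WT. The G2/M mean was -0.25, -0.07 and -0.35 in CD55KO and 0.87, -0.20 and -0.0020 in WT. WT replicate 1 was highest for both classes, and for G2/M genes it was further from the rest. It stood 0.48 above the mean of the other 5 libraries for S phase genes and 1.04 for G2/M genes on the log2 scale, while the SD over those 5 libraries was 0.089 and 0.14. These distances correspond to 1.39-fold and 2.06-fold, and for G1 and growth genes the distance was 0.13. Among the other 5 libraries the classes did not keep a common order, since WT replicate 2 was highest of them for S phase genes and WT replicate 3 for G2/M genes.

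**Figure D2:**
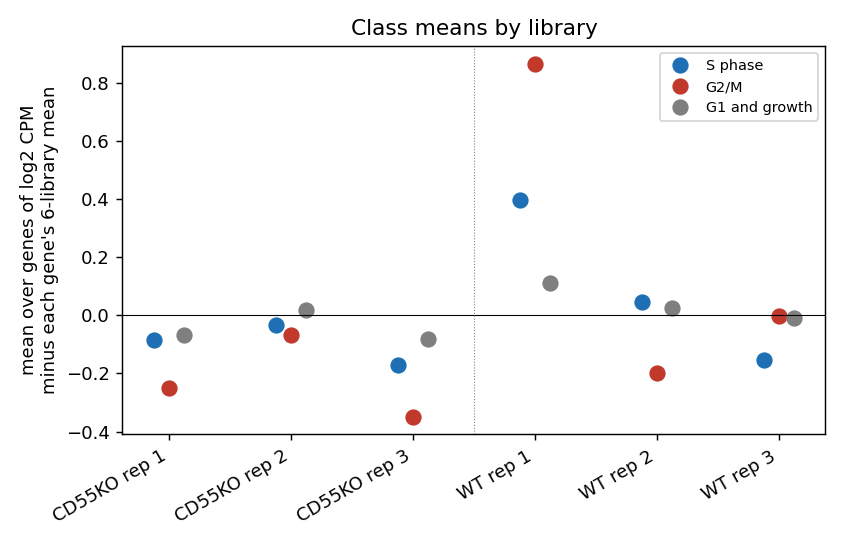
Points are the mean over the genes of a class of log2 CPM minus each gene's mean over the 6 libraries (vertical axis), for each library (horizontal axis) and for the 21 S phase, 20 G2/M and 6 G1 and growth genes. WT replicate 1 lies at 0.87 for G2/M and 0.40 for S phase genes, and the other 5 libraries lie between -0.35 and 0.05 for both classes.

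The difference of the S phase mean minus the G2/M mean was 0.16, 0.03 and 0.18 in CD55KO and -0.47, 0.25 and -0.15 in WT. WT replicate 2 had the highest and WT replicate 1 the lowest value, so the WT libraries enclosed all CD55KO libraries. Ratios of WT replicate 1 to the mean of the other libraries had a median of 1.31 over the S phase genes (0.881 for Cdt1 to 2.52 for Cdc6). Over the G2/M genes the median was 2.16 (1.11 for Cks2 to 2.91 for Ube2c). At least 1.5-fold was reached by 6 S phase genes, Cdc6, Rrm2, Ccne2, Cdc45, Mcm10 and Lig1, and by 17 G2/M genes, beside 6.71% of all genes tested. G2/M genes were also the lower ones in level, and 18 of the 20 had a mean under 20 CPM against 8 of the 21 S phase genes. Within this range of levels the median log2 excess in WT replicate 1 was 0.69 over the 8 S phase genes and 1.12 over the 18 G2/M genes. By role, the excess was 0.36 for the MCM helicase, 0.38 for DNA synthesis, 0.52 for nucleotide supply and 0.65 for origin licensing and firing. It was 0.87 for the spindle genes, 0.89 for the mitotic CDK, 0.98 for mitotic kinases and checkpoint, 1.19 for the anaphase-promoting complex and 1.38 for Mki67 with Top2a. The spindle genes here include Tubb5 and Stmn1 of the G1 and growth class. The smallest excess by role was 0.14, for the cyclins D and E with Cdk2 and Cdk4.

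**Figure D3:**
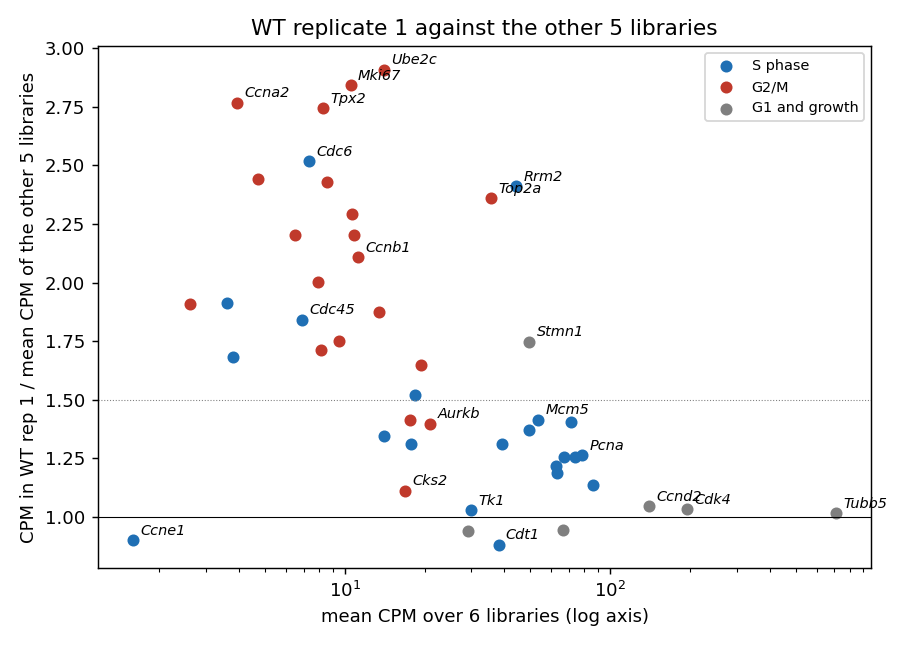
Each point is 1 of the 47 genes, with its mean CPM over the 6 libraries (horizontal, log axis) and its ratio of WT replicate 1 to the mean of the other 5 libraries (vertical, linear axis), coloured by class. G2/M genes lie around a ratio of 2.16 and mostly under 20 CPM, and S phase genes around 1.31, with Cdc6 (2.52) and Rrm2 (2.41) the highest of them.

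When WT replicate 1 was left out, the differences between genotypes were smaller for 40 of the 47 genes. These were 20 of 20 G2/M, 17 of 21 S phase and 3 of 6 G1 and growth genes. WT replicate 1 was the highest library for 38 of the 47 genes. Leaving it out lowers the WT level of those genes, so this count largely restates how that library was picked. The median log2 fold change went from -0.24 to -0.04 for S phase genes, from -0.50 to -0.13 for G2/M genes and from -0.02 to 0.0002 for G1 and growth genes. Negative values were left for 31 of the 47 genes, of which 14 were S phase and 14 were G2/M genes. In this fit of 5 libraries none of the 47 passed the threshold, beside 0.366% of the 14204 genes tested. With an unadjusted p under 0.05 and a lower level in CD55KO there were 2 of 47, Mcm5 and Ccnd3, beside 3.57% of all genes. Cdt1, low in WT replicate 1, was the gene of licensing whose distance grew, from -0.10 to -0.19, with both remaining WT libraries above all CD55KO libraries. The difference of the class means, CD55KO minus WT, was -0.19 for S phase and -0.44 for G2/M genes with all libraries. Without WT replicate 1 these were -0.04 and -0.12, under the SD of each class over the other 5 libraries.

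**Figure D4:**
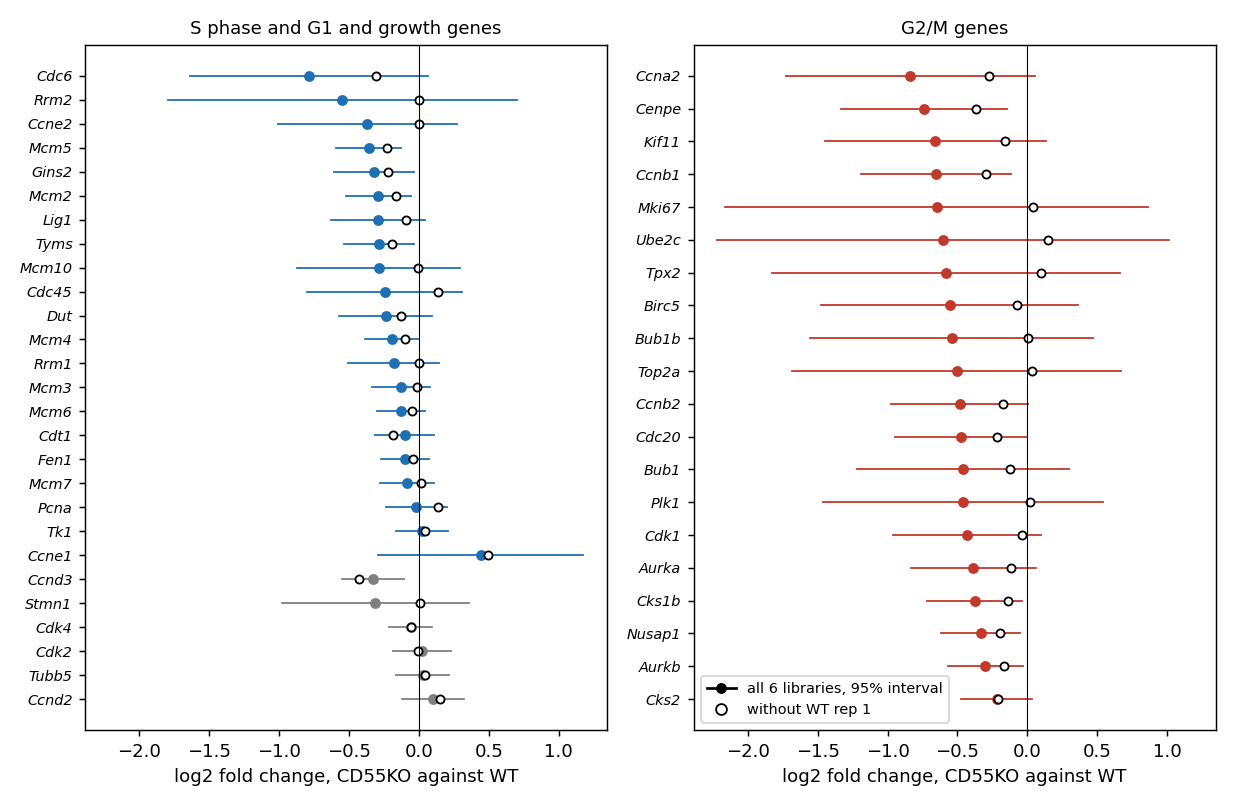
Log2 fold changes of CD55KO against WT for the 47 genes by class, with all 6 libraries and without WT replicate 1. With all libraries the class medians are -0.24, -0.50 and -0.02 for S phase, G2/M and G1 and growth genes, and without WT replicate 1 they are -0.04, -0.13 and 0.0002.

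Promoters of members were searched because nearly all G2/M genes had the same highest library, and because the control of these genes is well described. Genes of mitosis are known to carry a cell cycle homology region (CHR, searched as TTTGAA and in its other common form, which is TTTAAA) near their start, often with CCAAT boxes upstream, and genes of replication to carry E2F sites (searched as TTTCGCGC, TTTGGCGC, TTTCCCGC or TTTGCCGC). Both strands of the RefSeq promoters (GRCm38.p6, 250 bases before to 50 after the start) were searched, and 39 of the 47 genes had 44 promoters in the table. Stretches of 200 bases before the start are shown for 4 G2/M genes and 3 S phase genes named above whose stretch overlaps annotated exons by at most 30 bases. Capitals mark CHR, CCAAT and E2F letters on either strand. On the opposite strand the first form of the CHR reads TTCAAA, and the other form is its own reverse complement. The reverse complement of the CCAAT box, ATTGG, is marked too. The G2/M genes come before the S phase genes.
Cdc20, chr4:118437344-118437543, minus strand: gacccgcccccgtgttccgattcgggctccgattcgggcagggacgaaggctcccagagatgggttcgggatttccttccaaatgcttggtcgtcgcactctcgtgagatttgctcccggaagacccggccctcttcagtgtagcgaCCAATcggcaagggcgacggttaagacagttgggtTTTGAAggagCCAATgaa
Top2a, chr11:99024190-99024389, minus strand: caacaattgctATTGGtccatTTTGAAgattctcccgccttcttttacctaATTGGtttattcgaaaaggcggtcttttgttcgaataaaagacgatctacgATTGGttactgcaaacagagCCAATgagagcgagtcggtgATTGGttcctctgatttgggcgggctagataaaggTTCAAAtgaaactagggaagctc
Mki67, chr7:135716380-135716579, minus strand: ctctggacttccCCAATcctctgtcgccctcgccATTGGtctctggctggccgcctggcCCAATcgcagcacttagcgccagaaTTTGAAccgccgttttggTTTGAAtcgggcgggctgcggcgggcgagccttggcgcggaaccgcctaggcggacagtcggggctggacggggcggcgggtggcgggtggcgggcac
Cenpe, chr3:135212363-135212562, plus strand: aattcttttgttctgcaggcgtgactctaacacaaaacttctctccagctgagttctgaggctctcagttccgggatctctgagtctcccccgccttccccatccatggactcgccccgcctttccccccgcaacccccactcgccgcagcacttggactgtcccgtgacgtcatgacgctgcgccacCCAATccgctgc
Mcm5, chr8:75109309-75109508, plus strand: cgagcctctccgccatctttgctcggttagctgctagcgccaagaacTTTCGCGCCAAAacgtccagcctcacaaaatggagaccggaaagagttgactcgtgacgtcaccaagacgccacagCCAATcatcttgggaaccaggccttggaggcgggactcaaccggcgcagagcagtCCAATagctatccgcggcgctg
Mcm2, chr6:88898781-88898980, minus strand: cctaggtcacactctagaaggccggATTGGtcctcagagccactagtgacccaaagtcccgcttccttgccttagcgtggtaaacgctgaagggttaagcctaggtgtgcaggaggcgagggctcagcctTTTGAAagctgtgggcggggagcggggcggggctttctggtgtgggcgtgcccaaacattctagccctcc
Rrm2, chr12:24708054-24708253, plus strand: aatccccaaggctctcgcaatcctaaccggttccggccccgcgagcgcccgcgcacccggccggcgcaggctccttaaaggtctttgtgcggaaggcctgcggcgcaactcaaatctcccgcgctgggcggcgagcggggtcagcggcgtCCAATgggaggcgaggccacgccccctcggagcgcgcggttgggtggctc

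Cdc20 carries a CHR from base -18 with a CCAAT box from base -53 before it, counted from the start. Top2a has CHR letters from bases -179 and -23 among 5 CCAAT boxes in the stretch shown, and Mki67 has them from bases -116 and -98. Cenpe has a single CCAAT box here, and its CHR letters start at base 15, past the stretch shown. Of the S phase genes, Mcm5 holds E2F letters on both strands from bases -153 and -149, and Mcm2 a CHR from base -70. A CHR was found in 14 of 17 G2/M promoters (82.4%), 7 of 22 S phase promoters (31.8%) and 27.6% of all 32851 promoters in the table. CCAAT was found in 15 of 17 G2/M (88.2%) and 11 of 22 S phase promoters (50%), against 37.4% of all, and both motifs together in 13 of 17 (76.5%), 4 of 22 (18.2%) and 10.7%. E2F letters were in 7 of 22 S phase promoters (31.8%), 1 of 17 G2/M promoters (5.88%) and 2.26% of all. Across the members' promoters, 1 pair of hits of different motifs shared letters. The median ratio of WT replicate 1 to the other libraries was 2.20 over the 14 G2/M genes with a CHR (1.65 to 2.91), and was 1.41 over the 3 without one, Bub1, Cks2 and Nusap1 (1.11 to 1.91). Aurkb, Ccna2 and Tpx2 had no promoter in the table, and their ratios were 1.40, 2.77 and 2.74. Among S phase genes the medians were 1.37 for 7 genes with a CHR and 1.31 for 11 without. Split by E2F letters, they were 1.26 for 7 S phase genes with and 1.31 for 11 without. A link between these motifs and the ratio was not tested. These matches of letters are a description and do not show binding of a factor.

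Further genes of the pathway, outside the 47, were measured in the same 6 libraries, so they are no independent check. Of 53 other G2/M genes tested, none passed the threshold and 51 had a negative log2 fold change. An unadjusted p under 0.05 with a lower level in CD55KO was found for 18, beside 4.3% of all genes tested. The median over these 53 genes was -0.34, and -0.08 without WT replicate 1. WT replicate 1 was the highest library for 51 of them, beside 18.5% of all genes tested. It was at least 1.5-fold above the mean of the others for 38, beside 6.71%. The 2 with the smallest p were Tubb4b, a β-tubulin, with a log2 fold change of -0.30 ± 0.08 (adjusted p 0.183), and Gtse1, which acts on spindle microtubules, with -0.84 ± 0.23 (adjusted p 0.192). Tubb4b was at 129, 151 and 152 CPM in CD55KO and at 172, 188 and 172 CPM in WT. It did not follow WT replicate 1, which was 1.09-fold above the mean of the other libraries. Gtse1 was at 3.34, 2.87 and 3.22 CPM in CD55KO and at 7.53, 4.95 and 4.48 CPM in WT. Its genotypes did not overlap, although it was 2.00-fold above the mean of the other libraries in WT replicate 1.

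Of 47 other S phase genes tested, none passed and 35 had a negative value, with a median of -0.14 and of -0.05 without WT replicate 1. With all libraries 6 had an unadjusted p under 0.05 with a lower level in CD55KO, beside 4.3% of all genes tested. For 33 of the 47 WT replicate 1 was the highest library, beside 18.5% of all genes tested. It was at least 1.5-fold above the mean of the others for 9, beside 6.71%. Asf1b, a histone chaperone at the replication fork, was at 26.8, 23.5 and 19.5 CPM in CD55KO and at 41.0, 29.5 and 33.4 CPM in WT, with a log2 fold change of -0.57 ± 0.13 (adjusted p 0.122). Gins3, a GINS subunit like Gins2, had a log2 fold change of -0.43 ± 0.15 (adjusted p 0.351). Neither gene overlapped between genotypes, and both were highest in WT replicate 1.

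Of 19 transcription regulators of these genes (E2F, DP, MYB and FOXM1 families and their partners), none passed and 11 had a negative value, with a median of -0.05. Tfdp1, the DP1 partner of E2F, had a log2 fold change of -0.23 ± 0.10 (adjusted p 0.558) and Mybl2, B-MYB, -0.54 ± 0.29 (adjusted p 0.650). Mybl2 was at 1.39, 1.21 and 1.44 CPM in CD55KO and at 1.99, 2.14 and 1.78 CPM in WT, with its highest level in WT replicate 2. Of 18 CDK inhibitors and genes of quiescence, 15 were tested and none passed, and 9 had a positive value. An unadjusted p under 0.05 was found for 2 in each direction, beside 4.3% of all genes tested in each direction. Ccng1, cyclin G1, a p53 target, was at 59.0, 54.4 and 68.4 CPM in CD55KO and at 73.7, 79.5 and 70.6 CPM in WT (log2 fold change -0.30 ± 0.09, adjusted p 0.247). Foxo3, a factor of quiescence, had a log2 fold change of 0.20 ± 0.09 (adjusted p 0.543).

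Markers of other cells also differed between libraries. The 11 germinal centre B cell genes, a fast-dividing B cell state, summed to 44.3, 55.3 and 48.9 CPM in CD55KO and to 124, 50.1 and 104 CPM in WT. Neil1 made 17.3 to 30.9 CPM of each sum, and the other 10 summed to 23.6 to 93.0 CPM. Of the 11 genes, 6 were highest in WT replicate 1, beside 18.5% of all genes tested, and none was at 0 in all libraries. Bcl6 was highest in WT replicate 2, and Fas, Nuggc, Gcnt3 and Basp1 in WT replicate 3. Fas had a log2 fold change of 0.07 ± 0.16 and was at 0.976-fold the mean of the other libraries in WT replicate 1. Gcsam, a gene of germinal centre B cells, passed the threshold with an adjusted p of 0.034, and its level was 1.06 ± 0.48 CPM in CD55KO against 3.74 ± 1.26 CPM in WT. Without WT replicate 1, a setting added for this gene after seeing the data, the call was lost, with an adjusted p of 0.161 and a log2 fold change of -1.52 ± 0.37. WT replicate 3 shared the high germinal centre sum, and its G2/M mean of -0.0020 was the highest after WT replicate 1, but its S phase mean of -0.15 was among the lowest. The 8 erythroid genes summed to 1991, 1592 and 35.9 CPM in CD55KO and to 4359, 357 and 106 CPM in WT, and all 8 were highest in WT replicate 1. CD55KO replicates 1 and 2 had erythroid sums above those of WT replicates 2 and 3, and G2/M means of -0.25 and -0.07. The 9 plasma cell genes summed to 160 CPM in WT replicate 1 and to 129 to 143 CPM in the others, and Irf4, which B cells also express, held 49.1 to 64.2 CPM of each sum. Jchain, the joining chain of secreted antibodies, was at 2.64, 9.26 and 9.88 CPM in CD55KO and at 32.4, 10.9 and 16.4 CPM in WT. In WT replicate 1 Jchain was 3.30-fold above the mean of the other libraries, and Slpi and Sdc1 were 2.55-fold and 1.95-fold above it. Sdc1 was at 2.62 CPM in WT replicate 2 as well. Prdm1 was 1.41-fold and Irf4 1.08-fold above that mean, whereas Derl3, Fkbp11 and Txndc5 lay below it, at 0.782-fold, 0.881-fold and 0.959-fold. Tnfrsf17 had 5 counts in all. Prdm1 was at 2.38, 3.44 and 2.45 CPM in CD55KO and at 4.91, 4.98 and 4.16 CPM in WT (log2 fold change -0.76 ± 0.23, adjusted p 0.254). The centred mean over the plasma cell genes was 0.59 higher in WT replicate 1 than in the other libraries on the log2 scale. The 7 T cell genes summed to 39.2 to 48.9 CPM, of which Lck alone made 38.7 to 47.7 CPM, and the other 6, Cd3d, Cd3e, Cd3g, Cd4, Cd8a and Trac, summed to 0.486 to 1.51 CPM. The 5 NK cell genes summed to 26.9 to 35.4 CPM, of which Prf1 made 26.5 to 35.2 CPM, and the other 4 summed to 0.107 to 0.595 CPM with Ncr1 at 0. The defining markers of T and NK cells were thus at or near 0 in all libraries. The 8 macrophage genes summed to 25.9, 22.6 and 22.6 CPM in CD55KO and to 21.4, 18.2 and 14.7 CPM in WT. Every CD55KO sum thus exceeded every WT sum. Cd68 made 10.7 to 16.8 CPM of each, also without overlap (log2 fold change 0.45 ± 0.12, adjusted p 0.209). The 6 neutrophil genes summed to at most 0.64 CPM with Ly6g and Elane at 0. Of the 8 macrophage genes, 5 were highest in WT replicate 1, each at 4.13 CPM or less. Of the 6 that passed the filter on low counts, 3 were, beside 18.5% of all genes tested. For Vcam1 the margin was small, at 1.506 CPM against 1.503 CPM in CD55KO replicate 1. For Adgre1 it was 4.13 CPM against 4.10 CPM in CD55KO replicate 3. C1qa, at 0.68 CPM, was 5.31-fold and C1qc, at 0.83 CPM, 7.87-fold above the mean of the other libraries. Both had 32 counts in all and did not pass the filter. Cd68 and Cd5l were lowest in WT replicate 1. The part of these other cells in the levels of the cell cycle genes was not tested.

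**Figure D5:**
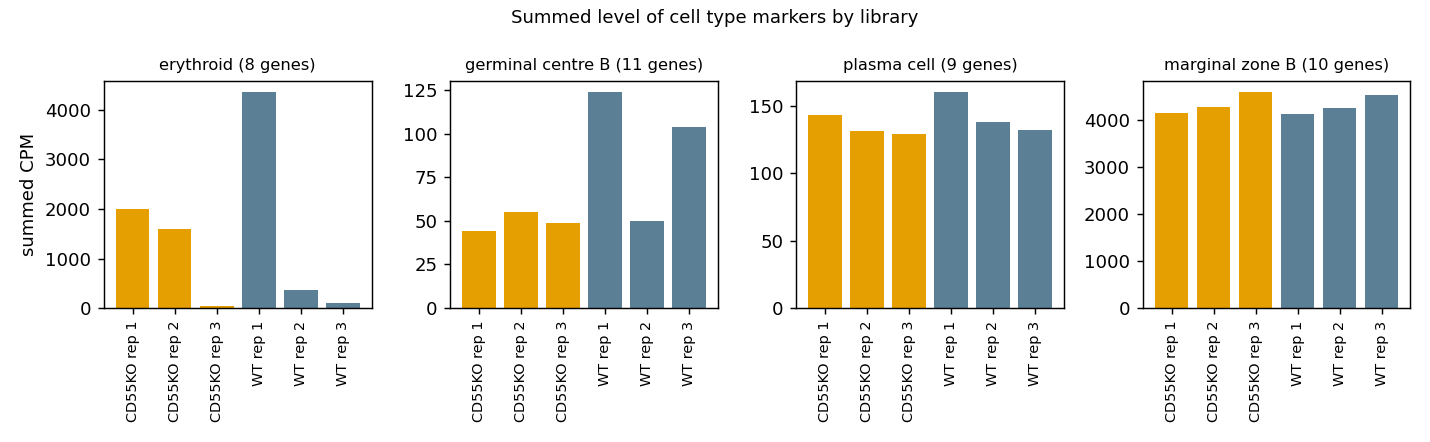
Bars are the summed CPM of the marker genes of 4 cell types in each library, CD55KO in orange and WT in blue, from 0 and with a scale of its own in each panel. WT replicate 1 has the highest erythroid (4359 CPM) and germinal centre (124 CPM) sums, while the MZ B cell sum is within 4125 to 4594 CPM in all libraries.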

How the data were processed

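RNA was taken up with RNeasy micro columns and turned into libraries by the SMARTer Ultra Low RNA method, per the labels' protocols, so strand is not marked. The deposited table holds estimated counts per gene. DRAGEN, edgeR and limma are named in the submitters' processing notes, with no role for any of them. The genome build, annotation and settings behind the counts were not given in the sources used here. Of 55774 rows, 287 were exact repeats of a gene ID and were removed, and values were rounded to whole numbers (30.9 to 31.9% of a library's values above 0 had a fraction, tolerance 0.005). Positions and exon lengths came from GENCODE M21 (GRCm38) by gene ID, where 99.5% of the IDs were found.

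The genotype test was that of edgeR 4.0.16 (R 4.3.3), with filterByExpr (minimum count 10, minimum total 15), TMM, the robust quasi-likelihood F-test with genotype alone, and Benjamini-Hochberg adjustment over all 13794 genes tested, at a threshold of 0.05. Centred values are log2 CPM with a prior count of 2. A count of 0 allows up to 3 counts, or 0.0958 to 0.146 CPM, for counting error only. The test was run on simulated counts with known changes before use. The simulated libraries of a genotype shared their means, so a single outlying library such as WT replicate 1 was not tried. Alternatives were DESeq2 1.42.0, limma-voom (limma 3.58.1), other scalings, filters and prior counts, a non-robust fit, leaving out immunoglobulin genes, the replicate number as a block, and leaving out each library.

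The members, the gene lists and the comparison without WT replicate 1 were chosen with earlier results of these data known. Named in each of the S phase and G2/M classes were the 6 genes with the smallest p, the 3 with the highest mean CPM and the 3 (mean of at least 5 CPM) with 1 library furthest above the other 5. All G1 and growth genes were named, with the 2 genes with the smallest p of each other list of the pathway, where none passed the threshold. Of the cell type markers only Gcsam passed it, and the other markers were not chosen by p. Other members are given to complete each role. The promoters shown were narrowed, after they were seen, to those with few exon bases.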

Additional observations from a re-analysis of the deposited data

How the results depend on the processing

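The count of members past the threshold was 0 in 14 of 15 alternatives, DESeq2 and limma-voom included. Without a filter on low counts it was 5 (Mcm5, Cdc6, Cenpe, Ccnb1 and Ccnd3, adjusted p 0.0040 to 0.0187), and 232 genes passed in all against 55; the cause was not tested. DESeq2 called 137 genes in all. Leaving out each library in turn gave medians of -0.31 to -0.04 for S phase genes and -0.72 to -0.13 for G2/M genes, where the values nearest 0 were those without WT replicate 1. The difference of the class means ranged from -0.32 to -0.04 for S phase genes and from -0.65 to -0.12 for G2/M genes, and that of S phase minus G2/M from 0.08 to 0.44. The excess of WT replicate 1 stayed within 0.46 to 0.52 for S phase and 1.00 to 1.09 for G2/M genes under alternatives chosen after seeing the data.

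Of the 26 named members, 16 kept the sign of their difference in every alternative. With a library left out, values crossed 0 for Pcna (-0.10 to 0.13), Cdc45 (-0.41 to 0.14), Top2a (-0.72 to 0.032), Ube2c (-0.89 to 0.14), Mki67 (-0.96 to 0.040), Tpx2 (-0.86 to 0.10), Ccnd2 (-0.047 to 0.17), Cdk2 (-0.055 to 0.082), Tubb5 (-0.018 to 0.10) and Stmn1 (-0.46 to 0.0053). Pcna was also at 0.0021 with limma-voom.

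The labels do not say whether a shared replicate number marks a pair of libraries. Correlations of same-numbered deviations were 0.0746, -0.124 and 0.172, with 2 of 3 best with their own number. With 3 libraries per genotype these values cannot decide it. With the replicate number as a block, 0 members and 64 genes passed, and the medians were -0.19 for S phase and -0.44 for G2/M genes.

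Depth limits the lowest members most: Ccne1, with a mean of 1.59 CPM, had 255 counts over the 6 libraries.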
